A study of Mus musculus with 12 samples.

Results

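The genes described here encode secreted proteins that start, strengthen or block Wnt signalling. The members were chosen by name from a table of liver transcript levels. All 10 names were found among the 25676 genes of the table: the 5 Wnt ligands *Wnt10a*, *Wnt2*, *Wnt9b*, *Wnt4* and *Wnt5a*, the 2 R-spondins *Rspo1* and *Rspo3*, and the 3 inhibitors *Sfrp1*, *Sfrp5* and *Dkk3*. *Wnt10a* was chosen by its measured rise in knockout liver, so its knockout and wild-type levels are given below as a description, with no test. The other 9 names did not depend on such a rise by the rule, but they too were listed with earlier results of these data known.

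Wnt proteins bind Frizzled receptors with the co-receptors *Lrp5* and *Lrp6*, and in the canonical branch this stabilises beta-catenin, which then acts with TCF/LEF factors on target genes. R-spondins strengthen the signal by protecting the receptors from removal through *Rnf43* and *Znrf3*, whereas secreted frizzled-related proteins bind Wnt ligands themselves. In mouse liver, endothelial cells around the central vein are a known source of *Wnt2*, *Wnt9b* and *Rspo3*, and the signal keeps nearby hepatocytes in the pericentral state, marked by genes such as *Glul* and *Cyp2e1*.

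RNA sequencing of whole liver had been done on 12 mice of the C57BL/6 background, aged 3 to 4 months. The knockout group (KO) carried the genotype Foxa3-Cre YAP1 KO and the control group was labelled WT. Each genotype had 3 male and 3 female mice, and each mouse gave 1 library, so there were 4 groups of 3 libraries. Foxa3-Cre is active in the embryonic foregut endoderm, so hepatocytes and bile duct cells descend from cells that made Cre, and endothelial, stellate and immune cells of the liver do not. The labels do not say whether WT mice carried Cre or a floxed allele, nor whether mice were littermates. Labels set 3 libraries apart: the titles of WT female 3 and KO female 1 carry codes numbered well below those of the other 10, and WT male 2 has a library number outside the run of the others. The labels do not say what these codes stand for. No litter or cage is given, so p-values measure the spread between these mice.

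Levels are in TPM, a share of all transcripts scaled to a fixed sum and per length of transcript, so levels can be compared between genes. *Yap1*, the targeted gene, lay between 23.0 and 34.9 TPM in the 6 WT livers and between 0.994 and 3.11 TPM in the 6 KO livers. The hepatocyte markers, of which 9 of 10 were in the table, summed to 66528 to 108923 TPM over the 12 livers. Between 14321 and 15482 genes were above 0 in each library. Tests used limma on log2(TPM + 1) over 12278 genes with a mean of at least 0.5 TPM, with Benjamini-Hochberg adjusted p-values called below 0.05, and every difference below is on the log2(TPM + 1) scale, which understates changes of low genes. Over all tested genes the median KO minus WT difference was 0.35, with a median SE of 0.14, and it was -0.04 once the libraries had been rescaled by median-of-ratios factors. Genotype differences of the 10 genes over both sexes and within a sex are therefore given on both scalings, as deposited and rescaled. Values with libraries left out, and those of other pathway genes, are as deposited unless said.

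Reference sequence just upstream of the gene was at hand for 5 of the 10 genes, *Wnt2*, *Wnt9b*, *Wnt4*, *Rspo1* and *Sfrp5* (RefSeq, build GRCm38.p6). A ligand gene that differed between the genotypes, *Wnt4*, and one that did not pass the test, *Wnt2*, are shown side by side, as the bases between the RefSeq promoter window's outer end and the start of the annotated gene, read 5′ to 3′ on the gene's own strand. The *Wnt4* stretch is chr4:137277385-137277488 on the plus strand and the *Wnt2* stretch is chr6:18030586-18030695 on the minus strand.
Wnt4: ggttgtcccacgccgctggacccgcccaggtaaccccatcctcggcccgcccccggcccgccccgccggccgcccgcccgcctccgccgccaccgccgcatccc
Wnt2: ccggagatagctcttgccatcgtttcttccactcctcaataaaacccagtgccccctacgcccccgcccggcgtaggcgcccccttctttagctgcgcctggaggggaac
A search of the whole 300-base window (250 bases before and 50 after the RefSeq start) of all 5 genes, on both strands, looked for GGAATG, the core site of the TEAD partners of YAP1, and for CTTTGA, a core of the TCF/LEF site. Capitals would mark a match, and 0 of the 5 windows held either one, against 14.7% and 16% of 32851 promoter windows of that length. The *Wnt4* window was 84.3% G and C and the *Wnt2* window 65.7%.

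*Wnt10a*, a ligand best known from skin, hair and tooth development and able to signal through beta-catenin, went from near absence in WT liver to the highest mean level of the 10 genes in KO liver. Its gene lies at chr1:74791516-74804179 on the plus strand (GRCm38). WT males were at 0.0739, 0 and 0 TPM, and WT females at 0.118, 0 and 0.0288 TPM. KO males were at 11.9, 9.72 and 7.44 TPM, and KO females at 2.43, 15.7 and 13.3 TPM. Every KO library was above every WT library, and the lowest of the KO libraries, KO female 1, was still far above the highest WT library. The WT mean was 0.0368 ± 0.0491 TPM and the KO mean 10.1 ± 4.71 TPM (SD, n = 6 each). The WT values rested on 6 reads over all 6 libraries, by a reconstruction of whole reads from the steps between values, and the KO values on 1453 reads. In the 3 WT libraries listed at 0, the limit that a count of 0 allows was 0.0930 to 0.115 TPM (3 reads, counting error only). The KO minus WT difference was 3.26 as deposited and 3.04 rescaled, at 3.36 in males (rescaled 3.13) and 3.16 in females (rescaled 2.95). The authors' deposited table gave a log2 fold change of 6.62 for *Wnt10a*, on a scale without that pseudocount.

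**Figure D1:**
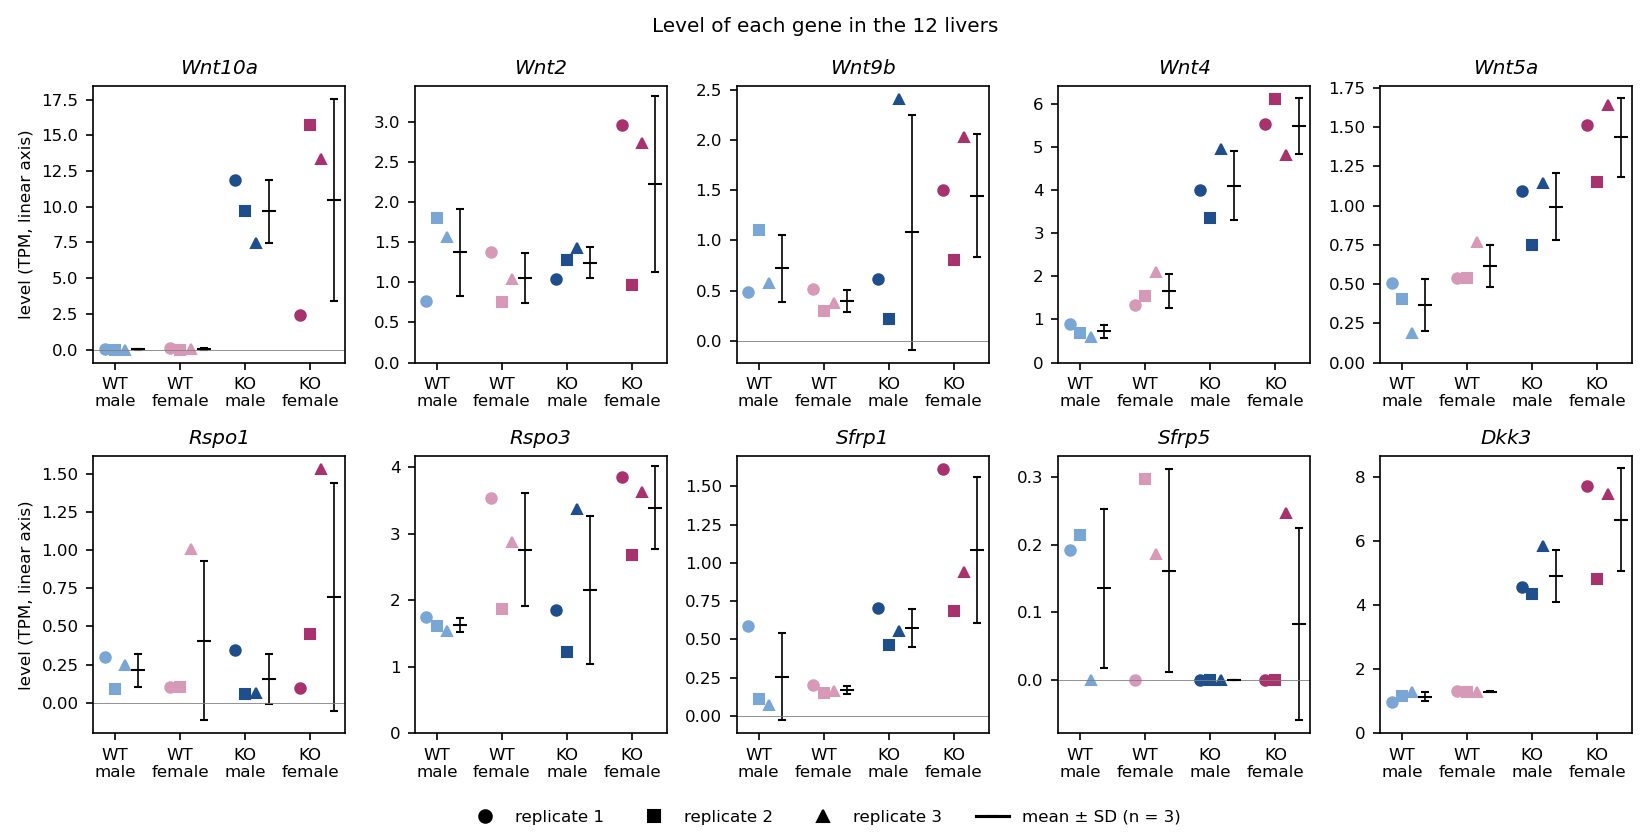
Level in TPM (linear axis) of each of the 10 genes in the 12 livers, by genotype and sex; points are single livers and bars are the mean ± SD of 3. *Wnt10a*, *Wnt4* and *Dkk3* have every KO liver above every WT liver, while *Wnt2*, *Wnt9b*, *Rspo1*, *Rspo3* and *Sfrp5* overlap widely.

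*Wnt4*, a ligand with roles in kidney and female reproductive tract development and in fibrotic tissue, rose in KO liver. Its gene lies at chr4:137277489-137299726 on the plus strand. Its level was 0.891, 0.680 and 0.602 TPM in WT males, and 1.34, 1.55 and 2.10 TPM in WT females. In KO males it was 4.01, 3.35 and 4.95 TPM, and in KO females 5.54, 6.11 and 4.82 TPM. All KO livers lay above all WT livers, and within WT all females lay above all males. The mean went from 1.19 ± 0.579 to 4.80 ± 1.00 TPM (SD, n = 6 each), on 360 and 1200 reads. The difference was 1.42 (SE 0.12, limma adjusted p = 8.95e-07) and 1.11 after rescaling (limma adjusted p = 7.10e-06). In males it was 1.56 (rescaled 1.21) and in females 1.29 (rescaled 1.02).

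*Wnt5a*, a ligand that mostly signals outside beta-catenin, through Ror receptors, also rose, by less. WT males were at 0.506, 0.406 and 0.185 TPM, and WT females at 0.538, 0.537 and 0.768 TPM. KO males were at 1.09, 0.747 and 1.14 TPM, and KO females at 1.51, 1.15 and 1.64 TPM. KO male 2 lay just under the highest WT library, WT female 3, and the other 5 KO libraries were above every WT library. The mean went from 0.490 ± 0.191 to 1.21 ± 0.320 TPM (SD, n = 6 each), a difference of 0.57 (SE 0.11, limma adjusted p = 0.000743). Its WT mean is under 0.5 TPM, so it passed the filter on low values only through its KO level; with no filter the limma adjusted p was 0.000281. After rescaling the difference was 0.37 (limma adjusted p = 0.0147). Within one sex the rescaled difference no longer passed: in males 0.55 as deposited (limma adjusted p = 0.0159) became 0.33 (limma adjusted p = 0.151), and in females 0.59 (limma adjusted p = 0.0135) became 0.41 (limma adjusted p = 0.0751). The male call was also lost without WT male 3 (difference 0.45, limma adjusted p = 0.0641). The female call was lost without WT female 2 (0.56, limma adjusted p = 0.0528) or without KO female 3 (0.53, limma adjusted p = 0.0525).

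*Wnt2* and *Wnt9b*, the ligands known from central vein and sinusoidal endothelium, did not pass the test. *Wnt2* was at 0.768, 1.81 and 1.56 TPM in WT males and at 1.38, 0.753 and 1.04 TPM in WT females. It was at 1.04, 1.28 and 1.42 TPM in KO males, and in KO females at 2.97, 0.966 and 2.74 TPM. Only KO female 1 and KO female 3 were above every WT library. The *Wnt2* difference was 0.27 (95% interval -0.17 to 0.70, limma adjusted p = 0.274) as deposited and -0.01 rescaled (limma adjusted p = 0.979). In females it was 0.59 (limma adjusted p = 0.103) and 0.37 rescaled (limma adjusted p = 0.313). Without KO female 2 the female difference as deposited was 0.92 (limma adjusted p = 0.00837).

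*Wnt9b* was at 0.484, 1.10 and 0.576 TPM in WT males and at 0.515, 0.292 and 0.377 TPM in WT females. KO males were spread over 0.612, 0.213 and 2.41 TPM, and KO females over 1.5, 0.803 and 2.03 TPM. KO male 2 was the lowest of all 12 libraries and KO male 3 the highest. The *Wnt9b* difference was 0.46 (95% interval -0.05 to 0.97, limma adjusted p = 0.111) and 0.24 rescaled (limma adjusted p = 0.421). The call turned on 1 library: without KO male 2 the difference was 0.64 (limma adjusted p = 0.0194). In females it was 0.78 (limma adjusted p = 0.0796) and 0.61 rescaled (limma adjusted p = 0.147). As deposited, the female limma adjusted p was 0.0486 without KO male 2, 0.0156 without KO male 3 and 0.0493 without KO female 2. Leaving out either male kept the female difference at 0.78. Only the SE, which shares 1 spread over the 4 groups, changed, from 0.32 to 0.28 and 0.22.

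Endothelial markers are given beside these 2 ligands. The 10 markers summed to 76.2 to 117 TPM in WT livers and to 45.9 to 174 TPM in KO livers, with KO male 2 lowest at 45.9 TPM, KO male 3 at 112, KO female 1 at 174 and KO female 3 at 124 TPM. In KO these last 3 livers were also the highest 3 for each ligand. Over the WT livers of both sexes no such order was seen. WT male 2, with the most of both ligands, had 87.7 TPM of the markers, and WT female 1, with the most markers, had 0.515 TPM of *Wnt9b*. Within each WT sex, however, the liver with the most markers also had the most of both ligands: WT male 2 among males and WT female 1 among females. Of the 10 markers, 1 (*Cdh5*) was higher in KO and 2 (*Oit3* and *Kdr*) were lower (rescaled 0 and 3), where 50.1% of all tested genes were higher and 4.82% lower (rescaled 20.9% and 18.7%). Each marker was above 0 in every liver. The part of the endothelial markers in the ligand levels was not tested. In whole tissue, fewer cells of a type and less RNA per cell cannot be told apart.

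The share of each ligand in the sum of the 5 is a description that restates the choice of *Wnt10a* by its rise. It is not a share of all Wnt ligands. *Wnt5b*, which is outside the 5, was at 4.73 ± 2.03 TPM in WT and 6.65 ± 1.85 TPM in KO (SD, n = 6 each). The 5 together averaged 3.50 TPM in WT and 19.1 TPM in KO. In WT liver *Wnt2* held 35.1% and *Wnt4* 33.8% of their summed TPM, and *Wnt10a* held 1.07% ± 1.42 (SD, n = 6). In KO liver *Wnt10a* held 50.9% ± 18.3 (17.4% in KO female 1 to 63.7%), *Wnt4* 26.0% and *Wnt2* 9.75%. The smaller share of *Wnt2* reflects the larger sum, as its own mean was 1.22 TPM in WT and 1.74 TPM in KO. The 4 ligands without *Wnt10a* summed to 3.46 ± 0.649 TPM in WT (2.65 to 4.28) and to 9.01 ± 2.41 TPM in KO (5.59 to 11.5; SD, n = 6 each). These groups did not overlap, and the sum carries *Wnt4*, which was called on its own.

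**Figure D2:**
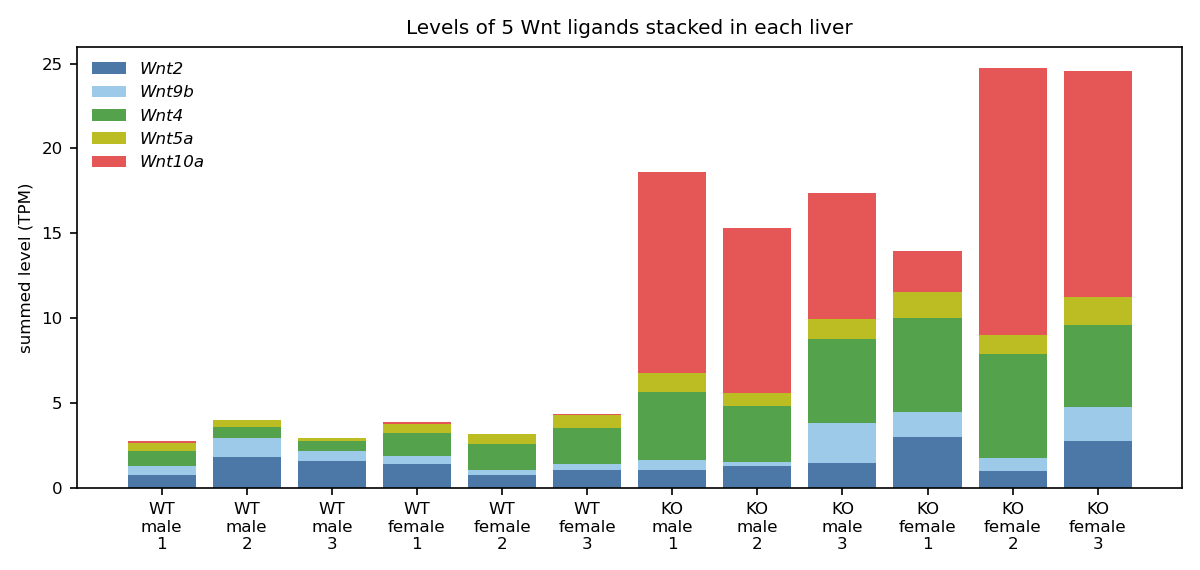
Stacked levels in TPM (linear axis from 0) of the 5 Wnt ligands in each of the 12 livers, 1 bar per liver. Other Wnt ligands, among them *Wnt5b*, are not in the stack. *Wnt10a* makes up 17.4% to 63.7% of the stack in KO livers and at most 3.03% in WT livers, and *Wnt4* is larger than *Wnt2*, *Wnt9b* and *Wnt5a* in every KO liver.

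The R-spondins did not pass the test or were too low for it. *Rspo3*, the main R-spondin of the central vein, was at 1.74, 1.61 and 1.54 TPM in WT males and at 3.55, 1.86 and 2.87 TPM in WT females. The KO males were at 1.86, 1.21 and 3.38 TPM, and KO females at 3.86, 2.69 and 3.64 TPM. The genotypes overlapped: 2 KO libraries lay above all WT libraries and 1 below them all. The difference was 0.22 (95% interval -0.14 to 0.58, limma adjusted p = 0.275), and -0.10 rescaled (limma adjusted p = 0.622). KO male 2 was the lowest library, as it was for *Wnt9b*. KO female 1, which had the highest endothelial marker sum, was the highest for *Rspo3*.

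*Rspo1*, which activates the same receptors and in the liver is known from mesothelial and stellate cells, had a mean below 0.5 TPM and was not tested. WT males were at 0.298, 0.0888 and 0.250 TPM, and WT females at 0.106, 0.103 and 1.01 TPM. KO males were at 0.348, 0.0584 and 0.0626 TPM, and KO females at 0.0949, 0.452 and 1.53 TPM. WT female 3 and KO female 3 stood above the rest of their genotype, with 26 and 30 reads against 1 to 8 in the other 10 libraries. The 6 mesothelial markers summed to 10.5 TPM in WT female 3, 15.8 in KO female 3 and 16.5 in KO female 2, against 2.0 to 4.82 TPM in the other WT livers and 4.32 to 9.03 TPM in the other KO livers. Whether mesothelial tissue in the sampled piece set the *Rspo1* level was not tested.

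**Figure D3:**
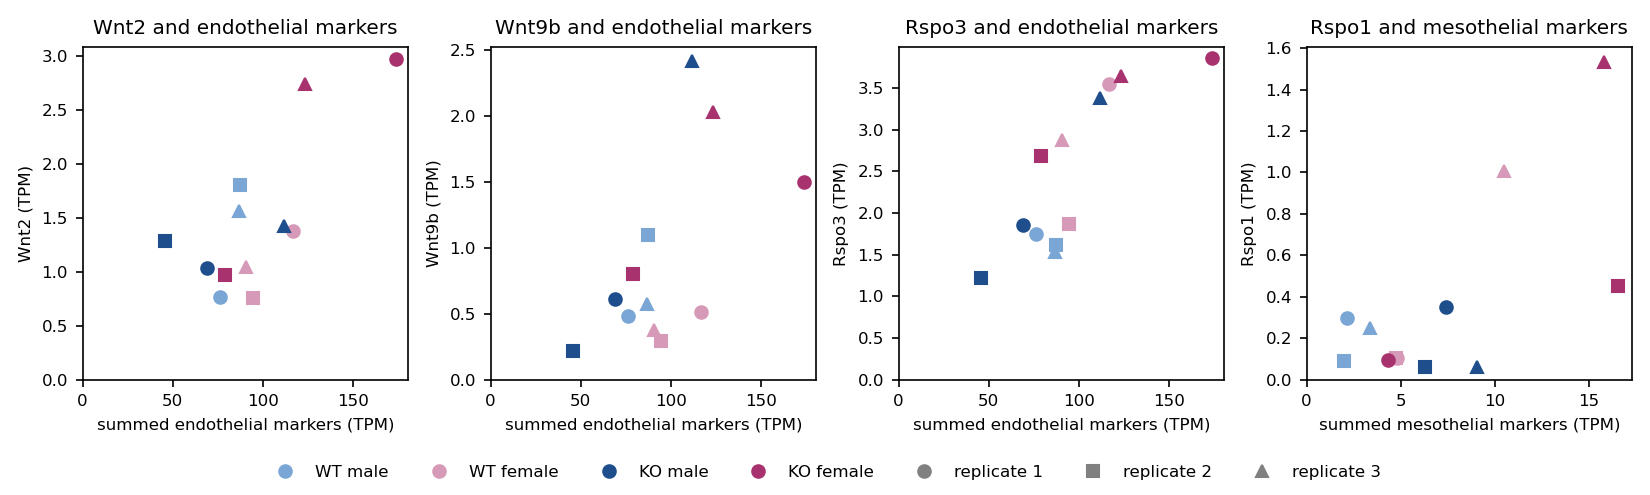
Each panel sets the TPM of 1 gene against the summed TPM of a marker list in the same liver (both axes linear; 1 point per liver): *Wnt2*, *Wnt9b* and *Rspo3* against 10 endothelial markers, and *Rspo1* against 6 mesothelial markers. KO female 1, with 174 TPM of endothelial markers, has the highest *Wnt2* and *Rspo3*, and KO male 2, with 45.9 TPM, has the lowest *Wnt9b* and *Rspo3*.

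Of the inhibitors, *Dkk3* and *Sfrp1* rose in KO liver. *Dkk3* is a divergent member of the Dickkopf family whose effect on Wnt signalling depends on the tissue. The WT males were at 0.977, 1.16 and 1.28 TPM, and WT females at 1.30, 1.29 and 1.29 TPM. The KO males were at 4.56, 4.34 and 5.84 TPM, and KO females at 7.72, 4.82 and 7.44 TPM. WT livers lay within a narrow band and every KO liver was above it. The mean went from 1.22 ± 0.128 to 5.79 ± 1.49 TPM (SD, n = 6 each), a difference of 1.59 (SE 0.13, limma adjusted p = 4.39e-07). After rescaling it was 1.26 (limma adjusted p = 2.44e-06).

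*Sfrp1*, a secreted frizzled-related protein that binds Wnt ligands, was lower throughout. WT males were at 0.584, 0.112 and 0.0700 TPM, and WT females at 0.200, 0.151 and 0.162 TPM. KO males were at 0.705, 0.465 and 0.551 TPM, and KO females at 1.61, 0.688 and 0.943 TPM. WT male 1 lay above 2 of the KO males, and the other 5 WT libraries were below every KO library. The difference was 0.58 (SE 0.15, limma adjusted p = 0.00509), and 0.43 rescaled (limma adjusted p = 0.0302). *Sfrp1* passed the filter with a mean of 0.520 TPM, only through its KO level; with no filter the limma adjusted p was 0.00473 over both sexes and 0.00609 in females. In females the difference was 0.81 (limma adjusted p = 0.00719) and 0.66 rescaled (limma adjusted p = 0.0222). In males it was 0.35 (limma adjusted p = 0.161) and 0.20 rescaled (limma adjusted p = 0.478). The female difference missed the threshold, at 0.62 (limma adjusted p = 0.0711), without the 3 libraries whose labels set them apart.

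*Sfrp5*, the third inhibitor, was too low to test. Among WT livers the males were at 0.192, 0.214 and 0 TPM, and WT females at 0, 0.298 and 0.187 TPM, on 20 reads in all. Of the 6 KO livers, 5 were listed at 0, where a count of 0 allows up to 0.137 to 0.181 TPM, and KO female 3 was at 0.246 TPM on 5 reads. The genotypes overlapped.

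The order of the levels differed between the genotypes. In WT liver it ran *Rspo3*, *Wnt2*, *Dkk3*, *Wnt4*, *Wnt9b*, *Wnt5a*, *Rspo1*, *Sfrp1*, *Sfrp5* and *Wnt10a*. Only the steps from *Rspo3* (2.19 ± 0.822 TPM) to *Wnt2* (1.22 ± 0.434) and from *Wnt4* to *Wnt9b* (0.558 ± 0.284; SD, n = 6) were larger than the larger SD of the neighbours. In KO liver the order was *Wnt10a*, *Dkk3*, *Wnt4*, *Rspo3* (2.77 ± 1.06 TPM), *Wnt2*, *Wnt9b*, *Wnt5a*, *Sfrp1*, *Rspo1* and *Sfrp5*, and only the step from *Wnt4* to *Rspo3* exceeded the spread.

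Counted over both sexes, with *Wnt10a* left aside, 4 of the 7 tested genes (*Wnt4*, *Wnt5a*, *Sfrp1* and *Dkk3*) were higher in KO and 0 were lower. Of all tested genes, 50.1% were higher and 4.82% lower, so the count is near the background. After rescaling the 4 of 7 stood beside 20.9% higher and 18.7% lower of all genes. *Wnt5a* and *Sfrp1* passed the filter only through KO, so these counts lend no support; of the other 5 genes, 2 (*Wnt4* and *Dkk3*) were higher on both scalings. Every KO library was above every WT library for *Wnt4* and *Dkk3*, beside 28.7% of all tested genes, and *Wnt10a*, chosen for its rise, did the same.

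In males 3 of the 7 genes (*Wnt4*, *Wnt5a* and *Dkk3*) were higher and 0 lower, where 43.3% of all tested genes were higher and 2.81% lower. Rescaled, 2 of 7 were higher and 0 lower, beside 13.9% and 10.2%. In females 4 of 7 (*Wnt4*, *Wnt5a*, *Sfrp1* and *Dkk3*) were higher and 0 lower, where 29.1% of all genes were higher and 4.68% lower. Rescaled, 3 of 7 were higher and 0 lower, beside 15.2% and 10.9%. The counts by sex lend no support either, since *Wnt5a* and *Sfrp1* passed the filter only through KO. Of the other 5 genes, 2 (*Wnt4* and *Dkk3*) were higher in each sex on both scalings.

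**Figure D4:**
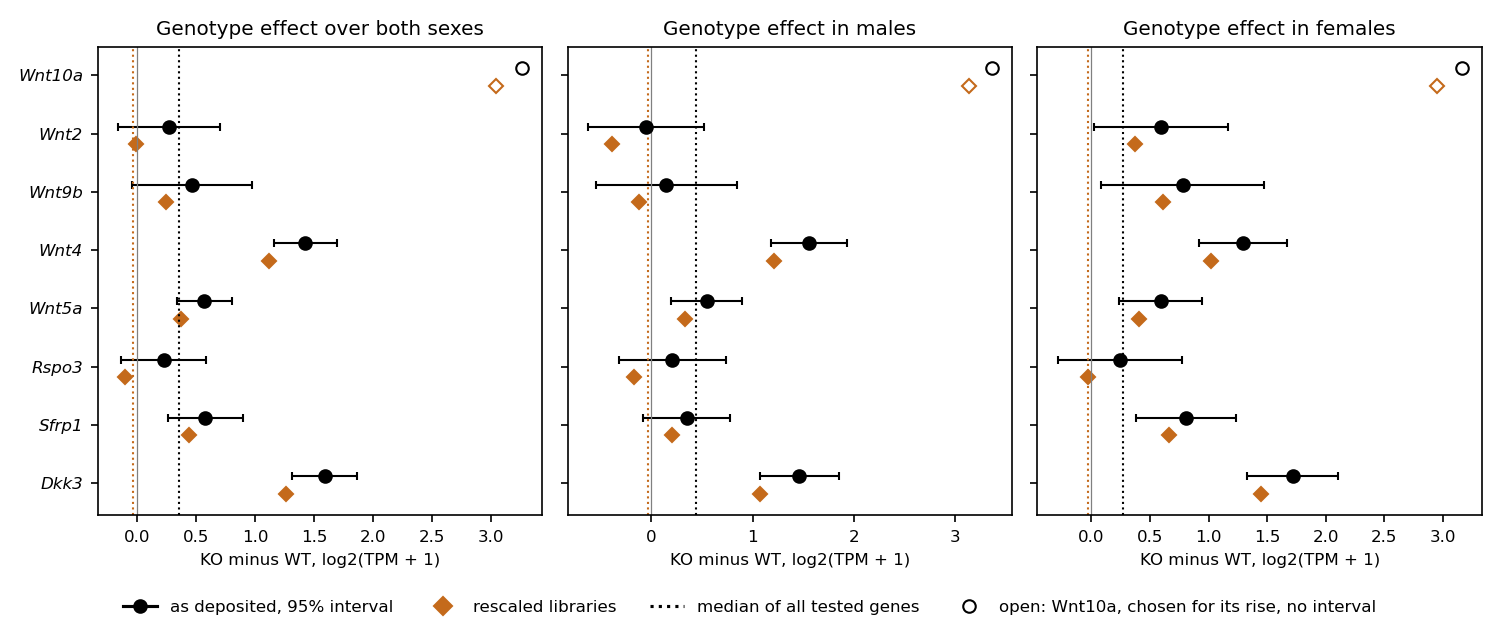
KO minus WT difference in log2(TPM + 1) of 7 tested genes and of *Wnt10a* over both sexes, in males and in females (1 panel each). Black points are TPM as deposited, with 95% intervals for the 7 tested genes, orange diamonds the rescaled libraries, dotted lines the median of all tested genes on each scaling; open symbols mark *Wnt10a*, chosen for its rise and shown with no interval or test. *Wnt4* and *Dkk3* lie beyond the median of all genes in every panel, and *Wnt2* and *Rspo3* lie near it over both sexes.

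No difference between the sexes passed the threshold in the 7 genes counted. *Wnt10a* was left out of these counts, with 2 reads in WT males and 4 in WT females and a rise by which it was chosen. In WT liver limma called 0 of 7, with 1 at an unadjusted p under 0.05, where 5.74% of all tested genes were called. That gene was *Wnt4*, with all 3 WT males below all 3 WT females (difference male minus female -0.62, SE 0.17, limma adjusted p = 0.0546). Rescaled, the *Wnt4* difference was -0.54 (limma adjusted p = 0.0807). Over all tested genes the median male minus female difference in WT was -0.19 as deposited and -0.013 rescaled. The *Wnt4* limma adjusted p ran from 0.0225 with a pseudocount of 0.1 to 0.339 over the alternatives tried. It was 0.0401 without KO male 3, where the difference stayed at -0.62 and only the SE changed, to 0.15. The stellate and fibroblast markers, 15 genes, summed to 87.0 to 118 TPM in WT males and to 172 to 247 TPM in WT females. The macrophage (72.7 to 76.2 against 114 to 236 TPM), mesothelial (2.0 to 3.38 against 4.75 to 10.5), endothelial (76.2 to 87.7 against 90.7 to 117) and hepatocyte sums were also lower in all WT males than in all WT females, so the stellate list is not particular to this difference. The part of these cells in it was not tested.

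In KO liver limma called 0 of 7 (0 at an unadjusted p under 0.05), where 0.0814% of all tested genes were called. Rescaled, it also called 0 of 7, with 2 at an unadjusted p under 0.05. All 7 were lower in males on both scalings. As deposited, differences ran from -0.29 for *Wnt5a* to -0.53 for *Rspo3*, and the smallest limma adjusted p was 0.859. The median over all tested genes was -0.0011. The *Wnt10a* value was 0.17, and it turned to -0.56 without KO female 1.

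The test of whether the genotype difference itself differed between the sexes called 0 of 7 (0 at an unadjusted p under 0.05), where limma called 0.912% of all tested genes. Male minus female effects ran from -0.65 for *Wnt2* to 0.27 for *Wnt4*. For *Sfrp1*, called in females and not in males, it was -0.46 (95% interval -1.06 to 0.14, limma adjusted p = 0.661), so the sexes were not shown to differ.

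Marker lists of other cell types are set beside the genes that rose. The 15 stellate and fibroblast markers summed to 87.0 to 247 TPM in WT and to 169 to 434 TPM in KO livers, with 8 higher and 1 lower (rescaled 4 and 3), led by *Col1a1* and *Lum*. That count is near the background of 50.1% higher, or 20.9% rescaled. Other genes of the list had lower means in KO: *Gas1* (14.3 TPM in WT and 7.84 in KO) and *Lrat* (5.68 and 3.64). *Colec11* (27.5 and 27.1 TPM) and *Ngfr* (1.70 and 1.56) were close to level. The largest parts of the KO sum were *Dcn* (122 TPM on average), *Col1a1* (62.0) and *Lum* (39.2), so it is mostly a sum of matrix genes. The lowest KO library for these markers, KO male 2 at 169 TPM, was also the lowest KO library for *Wnt4*, *Wnt5a*, *Sfrp1* and *Dkk3*, and the highest, KO female 1 at 434 TPM, was the highest for *Sfrp1* and *Dkk3*. KO male 2 was likewise the lowest KO library for the endothelial, macrophage and lymphocyte sums, and KO female 1 the highest, so this order does not set the stellate list apart from those. All 9 macrophage markers were higher (rescaled 8 of 9), from 72.7 to 236 TPM in WT to 354 to 735 TPM summed in KO. The 8 lymphocyte markers summed to 2.81 to 10.3 TPM in WT and 7.61 to 16.6 TPM in KO, and of 5 tested only *Ptprc*, a gene of all leukocytes, was higher on both scalings. The 6 neutrophil markers summed to 0.218 to 20.2 TPM in WT and 12.2 to 45.8 TPM in KO, with 3 of 4 tested higher (rescaled 1). Of 6 bile duct markers tested, 4 were higher and 1, *Epcam*, lower (rescaled 3 and 1), with *Krt19* at 1.38 ± 0.641 TPM in WT and 1.24 ± 0.728 in KO (SD, n = 6 each), and *Cftr* at or near 0 in every liver. Among the 4, *Cldn7* (0.248 TPM in WT and 11.3 in KO), passed the filter only through KO, so the count lends no support. The part of these cells in the levels of *Wnt4*, *Wnt5a*, *Sfrp1* and *Dkk3* was not tested. For *Wnt10a* the order within KO was another: KO female 1, the KO liver with the most stellate, endothelial, macrophage and lymphocyte markers, had the least *Wnt10a*. The bile duct sum was also highest there, but it is mostly *Spp1* (492 TPM on average in KO), and *Krt19* was lowest there, at 0.0552 TPM. The mesothelial sum was lowest there too, at 4.32 TPM. KO female 2 and KO female 3 were the highest KO livers for *Wnt10a* and for the mesothelial sum, at 16.5 and 15.8 TPM of these markers. Other livers went the other way. WT female 3 had 10.5 TPM of mesothelial markers, more than any KO male, and 0.0288 TPM of *Wnt10a*. Among KO males, KO male 3 had the most mesothelial markers (9.03 TPM) and the least *Wnt10a* (7.44 TPM). The part of mesothelial tissue in the *Wnt10a* level was not tested.

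The rest of the pathway was read from lists of its other genes, whose counts stand beside 50.1% higher and 4.82% lower of all tested genes as deposited, and 20.9% and 18.7% rescaled. Of 14 other Wnt ligands only *Wnt5b* was high enough to test (4.73 ± 2.03 TPM in WT, 6.65 ± 1.85 in KO, limma adjusted p = 0.0883), and 3 were at 0 in every liver. *Rspo2* and *Rspo4* were at or near 0. Of 11 other secreted inhibitors, 2 were tested. *Frzb*, another frizzled-related protein, went from 0.543 ± 0.299 to 5.08 ± 1.64 TPM (difference 1.95, limma adjusted p = 3.38e-06). *Notum*, an enzyme that inactivates Wnt ligands and is itself a target of the pathway, fell from 38.1 ± 16.2 to 19.99 ± 3.77 TPM (difference -0.82, limma adjusted p = 0.00216; SD, n = 6 throughout). Both calls stood after rescaling.

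*Wls*, the carrier that brings Wnt ligands to the cell surface, rose from 1.86 ± 0.572 to 4.08 ± 1.53 TPM (SD, n = 6; difference 0.79, limma adjusted p = 0.0015), and by 0.46 rescaled (limma adjusted p = 0.0365). *Porcn*, which acylates them, was at 2.19 and 1.94 TPM. Of 10 tested receptors and co-receptors, 3 were higher (*Lrp5* by 1.14, *Fzd6* by 0.70 and *Fzd1* by 0.54) and *Fzd8* was lower (-1.03). After rescaling only *Lrp5* stayed higher, and *Fzd8* and *Ryk* were lower. Of the 3 tested R-spondin and Dickkopf receptors, *Kremen1* was higher, and after rescaling 0 were higher and 2, *Lgr4* and *Lgr5*, were lower. *Rnf43* and *Znrf3*, the ligases that R-spondins hold back, did not pass the test as deposited, and *Rnf43* was lower after rescaling.

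Of 17 tested genes of the beta-catenin core, 8 were higher, with *Bcl9* (0.87), *Gsk3b* (0.80), *Dvl1* (0.58) and *Axin1* (0.53) in front, and 0 lower, a share near the 50.1% of all genes. After rescaling 1 was higher (*Bcl9*) and 1 lower (*Ctnnbip1*).

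Among genes known to answer to Wnt signalling, calls went both ways. Of 9 tested feedback targets, *Axin2* was higher (0.59, limma adjusted p = 0.0356) and *Notum*, *Sp5* (-0.69) and *Nkd1* (-0.43) were lower, and after rescaling 0 were higher and 5 lower, beside 20.9% and 18.7% of all genes. Of 12 pericentral hepatocyte genes, 3 were higher (*Slc13a3* by 1.41, *Rhbg* by 0.95 and *Axin2*) and 6 lower, beside 50.1% and 4.82% of all genes, with *Cyp2e1* (-2.20), *Cyp1a2* (-1.46), *Slc1a2* (-1.37) and *Nkd1* among them. *Glul*, the glutamine synthetase of the innermost hepatocytes, fell from 643 ± 128 to 400 ± 101 TPM (SD, n = 6 each; difference -0.70, limma adjusted p = 0.00478). After rescaling 1 was higher and 9 were lower, beside 20.9% and 18.7%. The median difference of these 12 genes was -0.39, beside 0.35 over all tested genes. The feedback and pericentral lists share *Axin2*, *Lgr5* and *Nkd1*, so the same calls enter both counts. *Notum*, *Lgr5*, *Rnf43* and *Znrf3* of the feedback list also stand in the lists above.

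**Figure D5:**
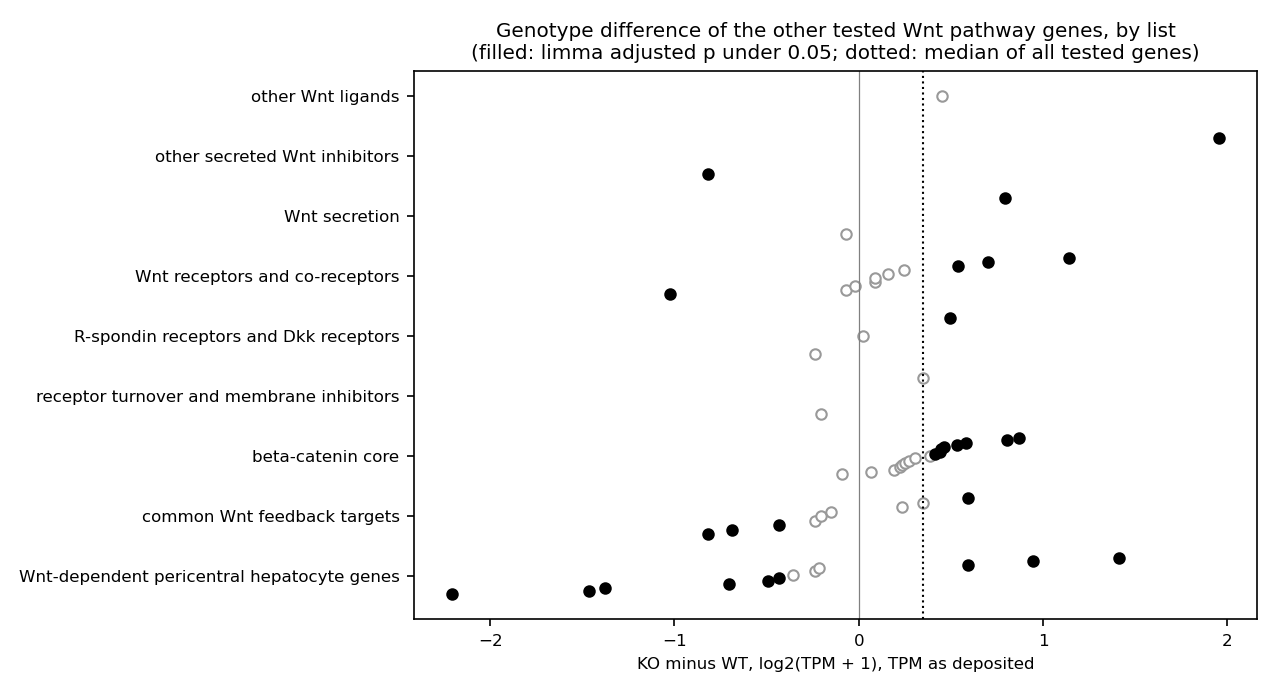
KO minus WT difference in log2(TPM + 1), TPM as deposited, of the other tested Wnt pathway genes, 1 row per list and 1 point per gene; filled points have a limma adjusted p under 0.05 and the dotted line is the median of all tested genes, 0.35. *Frzb* lies farthest right at 1.95 and *Cyp2e1* farthest left at -2.20, and most beta-catenin core genes lie close to the dotted line.

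The genes whose levels followed each member most closely over the 12 livers were named by Pearson's r of log2(TPM + 1), a description in which all points share the split between genotypes. For *Wnt10a* they were *Gpx2*, *Rgs1*, *St14*, *Mecr* and *Gldn* (r = 0.97 each), of which *Gpx2* went from 0.0699 to 9.23 TPM and *Gldn* from 0.0892 to 10.6 TPM. For *Wnt4* they were *Prom1* (r = 0.99, from 1.19 to 15.4 TPM), *Sept6* and *Fkbp10*. For *Dkk3* they were *Aqp7*, *Gpnmb* and *Itm2c* (r = 0.99 each). For *Wnt5a* they were *C1qtnf1*, *Gdf10* and *Prelp* (r from 0.97 to 0.98), and for *Sfrp1* *Pmaip1*, *Cdca3* and *Hmgb2* (r = 0.94 each). For the genes that did not pass the genotype test, *Wnt9b* went with *Flt1* (r = 0.94), *Rnf157* and *Rab6b*, *Rspo3* with *Kitl* (r = 0.93), *Tbx2* and *Abcc9*, and *Wnt2* with *Fam171a2* (r = 0.85), *Ier5l* and *Reep1*.

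With the 3 libraries that the labels set apart all left out, an alternative chosen after seeing the data, the genotype differences over both sexes were 1.47 for *Wnt4* and 1.53 for *Dkk3*, and both calls stood (limma adjusted p up to 3.63e-05). They were 0.60 for *Wnt5a* and 0.43 for *Sfrp1*, whose place among the tested genes rests on their KO level. In females the calls of *Wnt5a* (0.63, limma adjusted p = 0.0576) and *Sfrp1* were lost, with 2 libraries left in each group. KO female 1 is the KO library with the least *Wnt10a*, and without the 3 libraries the *Wnt10a* difference was 3.58.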

How the data were processed

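RNA sequencing of 12 whole mouse livers was read from 1 deposited table. The authors deposited TPM, 1 column per library summing to 1000000, and their own log2 fold change, per the file headers. The submitters' processing notes name GRCm38 and edgeR without roles; aligner, counter and use of strand are not given in the sources used here, so reads of overlapping or antisense genes cannot be told apart. TPM keeps no library total. Values were whole multiples of 1 read (within 0.02) for 11609 of 12187 genes up to 20 TPM (95.3%) and for all 10 genes described, and reads were counted from these steps.

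limma 3.58.1 (R 4.3.3) was fitted on log2(TPM + 1) for 12278 genes with mean TPM of at least 0.5 (lmFit, eBayes with trend, two-sided). The genotype effect used all 12 libraries with sex as covariate; the other 5 comparisons used the 4 group means. The fit was tested on simulated data. Benjamini-Hochberg adjustment ran over all tested genes, threshold 0.05. Alternatives were median-of-ratios rescaling, a pseudocount of 0.1, no filter or a mean TPM of at least 1, no trend, a covariate for the 2 low-numbered title codes and leaving out each library.

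Groups came from titles; replicates were numbered in deposition order. Positions are GENCODE mouse release 21 (GRCm38). Genes named were the 10 members, up to 4 called genes of each pathway list with the largest difference, and the 5 (*Wnt10a*) or 3 genes most like each member; *Ryk*, *Lgr4*, *Lgr5*, *Ctnnbip1*, *Rspo2*, *Rspo4*, *Porcn*, *Wnt5b*, *Rnf43*, *Znrf3*, *Rhbg*, *Glul* and the marker genes were named after their values were seen. Members and lists were chosen with earlier results of these data known.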

Additional observations from a re-analysis of the deposited data

Results flagged for a closer look

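Among 20 sets of 6 libraries (10 genes by 2 genotypes), *Sfrp5* in KO is set aside, since 5 of its 6 libraries are at 0 and any value above 0 would then stand apart. Of the other 19 sets, 4 held a library whose gap to its nearest neighbour, over the range of the set, was above Dixon's 95% critical value; chance flags about 1 set in 20. *Wnt9b* was at 1.10 TPM in WT male 2, with the next WT library at 0.576 TPM. *Rspo1* was at 1.01 TPM in WT female 3 (next 0.298) and at 1.53 TPM in KO female 3 (next 0.452). *Sfrp1* was at 0.584 TPM in WT male 1 (next 0.200). In the set put aside, *Sfrp5* was at 0.246 TPM in KO female 3.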

How the results depend on the processing

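No paired analysis was possible because replicate numbers were given in deposition order and pair no mice. With a mean TPM of at least 1, 4 of the 7 genes were left to test, and 2 were called over both sexes (4 in the report) and 2 in females (4); *Wnt5a* and *Sfrp1* fell below that filter. In females 2 were called with the 3 label-distinguished libraries left out. In WT, 1 gene (*Wnt4*) was called between the sexes with a pseudocount of 0.1 and 1 without the intensity trend (0 in the report), and 0 to 1 on leaving out single libraries, 1 without KO male 3.

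Differences that changed sign were all of genes not called there. On rescaling, the genotype difference became -0.0091 for *Wnt2* and -0.10 for *Rspo3* (-0.18 in males, -0.026 in females), -0.13 for *Wnt9b* in males, and the WT sex difference of *Dkk3* became 0.024. With the 3 libraries left out, *Wnt2* in males became 0.075, the KO sex difference of *Wnt10a* -0.56, its interaction -0.53 and that of *Rspo3* 0.0022. The KO sex difference of *Wnt10a* became -0.20 with the covariate for the 2 low-numbered title codes, and the interaction of *Wnt5a* became 0.18 with a pseudocount of 0.1. The cause was not tested. On leaving out single libraries, male differences ran from -0.26 to 0.075 for *Wnt2*, -0.28 to 0.46 for *Wnt9b* and -0.063 to 0.43 for *Rspo3*; WT sex differences from -0.067 to 0.014 for *Wnt10a* and -0.10 to 0.18 for *Sfrp1*; the KO sex difference of *Wnt10a* from -0.56 to 0.58; and interactions from -0.52 to 0.62 for *Wnt10a*, -0.14 to 0.049 for *Wnt5a* and -0.30 to 0.19 for *Rspo3*. Calls of all genes in males fell from 5663 to 2959 on rescaling, and WT sex calls ran from 260 to 1698 around 705 over the alternatives. Genotype differences of *Wnt4* and *Dkk3* passed the threshold in each alternative run, over both sexes and within each. *Rspo1*, *Sfrp5* and WT *Wnt10a* rest on few reads, which limits what could be seen.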

Other observations

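Some pathway genes below the filter on low values, chosen after their values were seen, are given as values with no test. *Wnt7a*, another Wnt ligand, was at most 0.0771 TPM in WT livers and between 0.268 and 0.579 TPM in the 6 KO livers. *Wnt2b* was at 0.522 ± 0.285 TPM in WT and 0.331 ± 0.236 TPM in KO, and *Wnt9a* at 0.376 ± 0.144 and 0.529 ± 0.339 TPM (SD, n = 6 each). *Sfrp2*, a frizzled-related protein, was at most 0.106 TPM in WT and between 0.115 and 0.695 TPM in KO. *Dkk4*, a Dickkopf inhibitor, ran from 0 to 0.524 TPM in WT (0.160 ± 0.249, SD, n = 6) and was listed at 0 in all 6 KO livers, so the genotypes overlapped at 0.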
